A study of Mus musculus with 16 samples.

Results

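Pou5f1, Sox2, Nanog, Sall4 and Utf1 are 5 core transcription factors of the pluripotent cell, and they were taken by gene name from a table of 27807 genes. RNA was measured by sequencing of poly-A RNA in mouse embryonic stem (ES) cells and in embryoid bodies (EBs), which are aggregates of differentiating ES cells, made from cells with and without Taf4a, a subunit of the general transcription factor TFIID. The series asked how the loss of Taf4a affects differentiation towards neurons, and compared each genotype at 4 stages, with 2 libraries at each stage and 16 libraries in all. The cells were labelled Taf4+/+, here WT, or Taf4-/-, here KO. The KO cells were homozygous for a null allele from which exons had been deleted. All lines were derived from blastocysts of heterozygous crosses, with 2 independent lines a genotype. The ES libraries came from cells grown on inactivated embryonic fibroblast feeders with LIF, a cytokine that maintains ES cells. EB4 libraries came from EBs before retinoic acid, a signal that drives them towards neurons, EB5 libraries from EBs after the first day of retinoic acid, and EB8 libraries from EBs later in the same treatment.

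Pou5f1 (also called Oct4), a POU-domain factor, and Sox2, an HMG-box factor, bind DNA side by side and keep ES cells undifferentiated. Nanog, a homeodomain factor, and Sall4, a zinc finger factor, act with them, and the genes of the group bind and activate one another. Utf1 is a chromatin-associated factor that is itself a target of the Oct-Sox pair. When ES cells leave pluripotency towards neural fate the group is shut down with the exception of Sox2, which neural progenitors also use.

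The genes lie on separate chromosomes, at chr17:35642982-35647721 (Pou5f1), chr3:34548927-34551383 (Sox2), chr6:122657507-122664651 (Nanog), chr2:168573832-168593443 (Sall4) and chr7:147129688-147131011 (Utf1) of the mm9 (NCBIM37) build. Sall4 is on the minus strand and the others are on the plus strand. Sox2 lies within the long noncoding gene Sox2ot on the same strand and shares 0 exon bases with it. Sall4 shares 526 exon bases with the antisense noncoding gene Gm14261, and reads over these bases cannot be assigned to one or the other without strand.

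Promoters are shown because 4 of the 5 genes were higher in KO than in WT cells at the last stage while Sox2 did not pass the test. RefSeq entries matched 4 of the 5 genes, and each sequence was located by exact match in NCBIM37 and ends before the annotated start of transcription. Capitals mark matches on either strand to an octamer core (ATGCAAA), a Sox site (CATTGT or CTTTGT), a nuclear receptor motif (AGGTCA) and a GC box (GGGCGG).
Pou5f1, chr17:35642727-35642976, plus strand: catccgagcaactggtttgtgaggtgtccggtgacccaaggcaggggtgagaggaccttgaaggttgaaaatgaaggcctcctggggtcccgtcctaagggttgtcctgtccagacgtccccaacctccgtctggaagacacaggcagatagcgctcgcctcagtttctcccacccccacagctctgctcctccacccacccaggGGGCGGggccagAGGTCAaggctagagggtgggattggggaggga
Nanog, chr6:122657257-122657506, plus strand: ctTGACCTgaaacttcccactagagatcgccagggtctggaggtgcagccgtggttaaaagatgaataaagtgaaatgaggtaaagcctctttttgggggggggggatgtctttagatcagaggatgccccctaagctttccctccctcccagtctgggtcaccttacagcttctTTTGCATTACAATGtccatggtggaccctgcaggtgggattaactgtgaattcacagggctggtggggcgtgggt
Sox2, chr3:34548667-34548916, plus strand: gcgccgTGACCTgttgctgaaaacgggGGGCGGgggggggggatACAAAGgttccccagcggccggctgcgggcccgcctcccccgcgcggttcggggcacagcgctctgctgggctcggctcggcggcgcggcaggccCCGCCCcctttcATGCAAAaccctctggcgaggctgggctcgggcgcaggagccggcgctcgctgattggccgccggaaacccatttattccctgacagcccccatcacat
Utf1, chr7:147129505-147129687, plus strand: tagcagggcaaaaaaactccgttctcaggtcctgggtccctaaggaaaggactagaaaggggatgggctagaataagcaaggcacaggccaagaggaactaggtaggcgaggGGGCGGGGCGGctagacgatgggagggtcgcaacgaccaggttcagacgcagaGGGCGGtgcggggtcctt
The Nanog promoter held a Sox site and an octamer core 1 base apart, from 75 to 62 bases before the start, and the capitals of that run cover both. This composite was found in 3 of 32851 RefSeq promoter windows (0.00913%), and 2 of the 3 are overlapping entries of Nanog. The separate motifs were common, in 4.63% of windows for the octamer core, 12.6% and 18.7% for the CATTGT and CTTTGT forms of the Sox site, 16.3% for the receptor motif and 35.7% for the GC box, counted from 250 bases before to 50 after a start. The Utf1 window held GC boxes and none of the other motifs. The receptor motif was present in the windows of Pou5f1, Sox2 and Nanog, and the Sox2 window held an octamer core 99 bases before its start. These matches are letters in a window, and binding was not measured in the libraries used here.

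Depth ranged from 22442118 to 40711826 reads, and every ES library (at least 32631020) was deeper than every EB library (at most 27685306). Taf4a itself was read at 1590.9 to 1959.6 normalised counts in WT libraries and at 1972.8 to 2400.0 in KO libraries, so it was not lower in the libraries labelled KO. A count over the whole gene does not resolve the deleted exons and does not check the labels. Among WT libraries ES replicate 2 stood apart. Eif2s3y, a gene of the Y chromosome, was read at 4.0 there, at 2248.1 in WT ES replicate 1 and at 840.7 to 1322.8 in the 6 WT EB libraries. In the 8 KO libraries Eif2s3y was between 1.9 and 92.1, so genotype and the presence of a Y chromosome cannot be told apart at the EB stages. Changes from WT ES to an EB stage, and genotype differences in them, may therefore compare different lines. Values that rest on WT ES are also given without replicate 1 or replicate 2 of that group where this moved them most, for Nanog in each case.

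**Figure D1:**
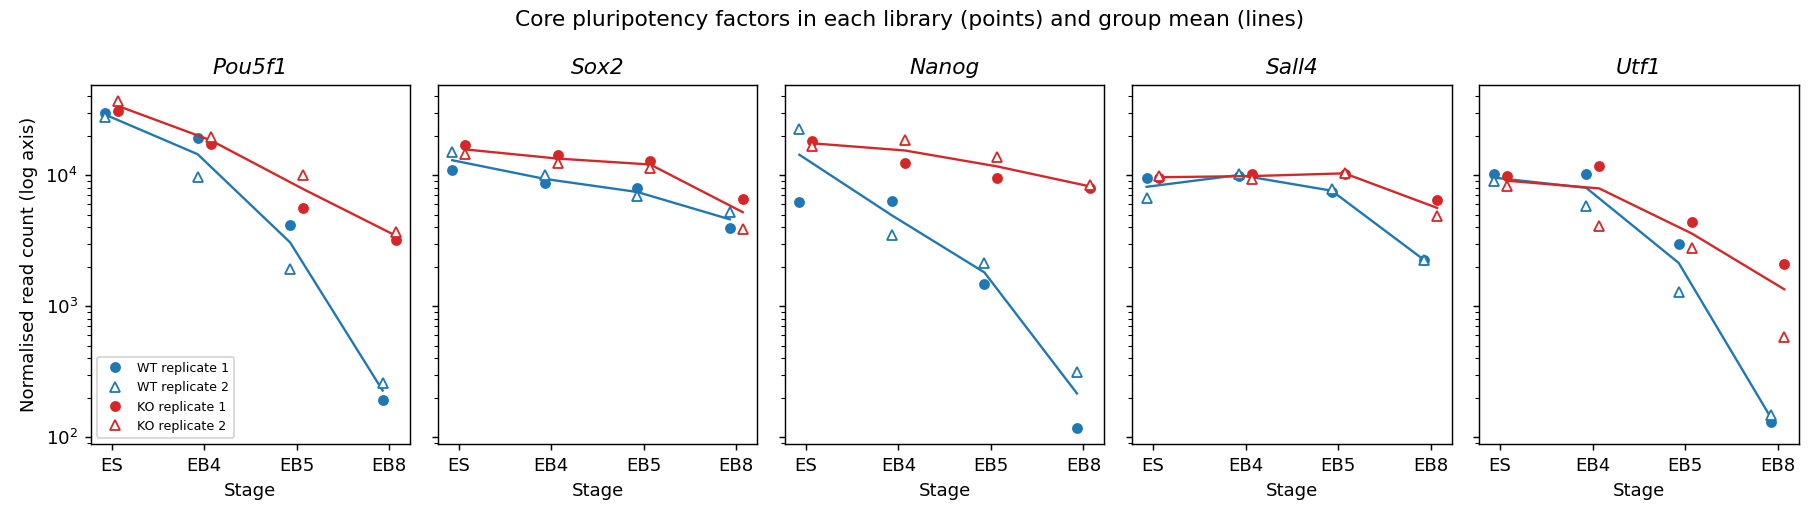
Normalised read count (log axis) of each factor at the 4 stages, with 1 point a library (circles replicate 1, triangles replicate 2), WT in blue, KO in red and lines through the group means. At EB8 both KO libraries lie above both WT libraries for Pou5f1, Nanog, Sall4 and Utf1, and the genotypes overlap for Sox2.

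In ES cells the factors did not separate WT from KO. Pou5f1 was read at 29929.9 and 27999.0 normalised counts in WT replicates 1 and 2, and at 30811.8 and 36605.6 in KO. Sox2 was read at 10942.0 and 15036.0 in WT and at 17043.8 and 14370.1 in KO, and Sall4 at 9531.3 and 6742.6 in WT and at 9445.4 and 9820.2 in KO. Only for Pou5f1 did both KO libraries exceed both WT libraries. Utf1 was read at 10167.5 and 8967.9 in WT and at 9848.0 and 8278.5 in KO. Nanog differed most between WT libraries, with 6241.9 in replicate 1 and 22356.7 in replicate 2, and the KO libraries (18211.8 and 16742.2) lay between them. In limma's test 0 of the 5 passed at an adjusted p of 0.05, beside 0% of the 16124 genes tested, and 0 of the 5 were under 0.05 unadjusted. DESeq2 and edgeR also called 0 of the 5. The fitted log2 differences of KO from WT ran from -0.08 (Utf1, 95% interval -1.38 to 1.22) to 0.56 (Nanog, -0.63 to 1.76). Without WT ES replicate 1 the difference of Nanog was -0.36, and without WT ES replicate 2 it was 1.48. Over 10 genes that mark feeder fibroblasts, summed counts were 2643.1 and 4441.7 in the WT ES libraries against 825.2 and 1105.7 in the KO ES libraries. Lum was at or under 3 reads in both groups and 9 of the 10 genes were tested. Of these limma and edgeR called 0 and DESeq2 called 4 lower, with 5 under 0.05 unadjusted. Over all 16124 genes limma and edgeR called 0 and DESeq2 called 369 lower, with 1846 under 0.05 unadjusted. The part of feeder RNA in the ES values was not tested. In bulk RNA fewer expressing cells and less RNA per cell cannot be told apart, here and in every comparison that follows.

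In WT cells Pou5f1, Nanog and Utf1 fell steeply after retinoic acid. Pou5f1 was read at 19284.7 and 9597.1 at EB4, 4185.5 and 1936.0 at EB5, and 193.2 and 260.5 at EB8. The WT ranges of the 4 stages did not overlap for Pou5f1, and its EB8 mean was 0.783% ± 0.164 (n = 2, the SD here and in later shares covering the EB8 libraries only) of the ES mean. Nanog was read at 6388.4 and 3464.6 at EB4, 1466.1 and 2147.9 at EB5, and 117.6 and 313.4 at EB8. Utf1 was read at 10198.0 and 5793.6 at EB4, 2991.4 and 1276.0 at EB5, and 130.2 and 148.2 at EB8. These EB8 levels were 1.51% ± 0.968 of the ES mean for Nanog and 1.46% ± 0.133 for Utf1. Against single WT ES libraries the EB8 mean of Nanog was 3.45% of replicate 1 and 0.964% of replicate 2.

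Sall4 and Sox2 were reduced far less in WT cells. Sall4 was read at 9772.8 and 10258.7 at EB4, 7445.1 and 7766.0 at EB5, and 2259.8 and 2239.3 at EB8. Sox2 was read at 8727.2 and 9978.8 at EB4, 7902.4 and 6959.9 at EB5, and 3950.5 and 5240.9 at EB8. At EB8 Sall4 kept 27.6% ± 0.179 of its ES mean and Sox2 35.4% ± 7.02 (SD, n = 2), and against single WT ES libraries these shares were 23.6% and 33.4% for Sall4 and 42.0% and 30.6% for Sox2.

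From ES to EB8 in WT cells all 5 factors passed as lower, beside 22.8% of the genes tested that were called lower. The fitted log2 changes were -7.01 for Pou5f1, -6.09 for Utf1, -5.93 for Nanog, -1.83 for Sall4 and -1.49 for Sox2, with limma adjusted p between 4.13e-07 and 3.49e-04. Without WT ES replicate 1 the change of Nanog was -6.86, and without replicate 2 it was -5.01, and all 5 passed in both cases. Without WT EB8 replicate 1 or 2 it was -5.23 or -6.64.

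The steps between the stages differed among the factors. From ES to EB4 in WT cells 0 of 5 passed in limma, where 16.5% of genes were called. Pou5f1 and Nanog were under 0.05 unadjusted in that step, edgeR called 0 and DESeq2 called both. Over all 16124 genes these counts were 5269 unadjusted, 2647 with edgeR and 3911 with DESeq2. The log2 change of Nanog in that step was -1.33, and it was -2.25 without WT ES replicate 1 (limma adjusted p = 0.0193) and -0.41 without WT ES replicate 2 (limma adjusted p = 0.646). That of Sall4 was 0.57 without WT ES replicate 1 (limma adjusted p = 0.0457) and 0.07 without WT ES replicate 2. From EB4 to EB5 Pou5f1 alone passed, with a log2 change of -2.26 (SE 0.38, limma adjusted p = 0.00523), where 1.14% of genes were called lower. This call was lost without WT EB4 replicate 1 (adjusted p = 0.0641) or WT EB5 replicate 2 (0.0742) in limma. From EB5 to EB8 4 of the 5 passed as lower, beside 4.62% of genes. Their log2 changes were -3.80 for Utf1, -3.66 for Pou5f1, -3.20 for Nanog and -1.76 for Sall4. The change of Utf1 was -3.19 without WT EB5 replicate 1 and -4.42 without WT EB5 replicate 2, and that of Nanog was -2.50 and -3.90 without WT EB8 replicates 1 and 2, all passing. Sox2 gave -0.70 (limma adjusted p = 0.0843). With the replicate number as a block within each genotype, 3 further changes in WT cells passed in limma, namely Pou5f1 from ES to EB4 (adjusted p = 0.0301), Utf1 from EB4 to EB5 (0.0120) and Sox2 from EB5 to EB8 (0.0247). The first of these pairs WT ES with WT EB libraries by number, and same-numbered libraries of those groups did not deviate together (r = -0.076 between ES and EB4).

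In KO cells every factor was still read at 577.4 counts or more at EB8, and Nanog kept a larger share of its ES level than Pou5f1, Utf1 or Sox2. Nanog was read at 12278.3 and 18551.3 at EB4, 9427.9 and 13846.1 at EB5, and 7989.0 and 8407.9 at EB8. Its EB8 mean was 46.9% ± 1.70 (SD, n = 2) of the KO ES mean. Pou5f1 was read at 17374.2 and 19545.4 at EB4, 5627.9 and 10036.2 at EB5, and 3217.9 and 3690.0 at EB8, the last being 10.2% ± 0.990 of its ES mean. Both genes thus remained in KO EB8 at different shares of their starting level, and the EB8 libraries agreed closely for each.

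Utf1 was the factor on which the KO libraries differed most at EB4 (2.84-fold) and EB8 (3.66-fold), and at EB5 Pou5f1 differed more (1.78-fold against 1.60-fold). Utf1 was read at 11711.7 and 4116.8 at EB4, 4406.8 and 2762.6 at EB5, and 2111.2 and 577.4 at EB8, and replicate 1 was higher at each stage. Sall4 was read at 10263.1 and 9398.8 at EB4, 10281.2 and 10346.5 at EB5, and 6405.3 and 4833.0 at EB8. Sox2 was read at 14329.7 and 12410.5 at EB4, 12813.6 and 11281.3 at EB5, and 6517.1 and 3904.1 at EB8. As a share of the KO ES mean the EB8 levels were 58.3% ± 11.5 for Sall4 and 33.2% ± 11.8 for Sox2 (SD, n = 2).

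From ES to EB8 in KO cells 4 of the 5 passed as lower, beside 18.0% of genes called lower. The log2 changes were -3.28 for Pou5f1, -3.03 for Utf1, -1.63 for Sox2 and -0.79 for Sall4. The change of Utf1 was -3.96 without KO EB8 replicate 1 and -2.10 without KO EB8 replicate 2, and that of Sall4 did not pass under quantile normalisation (-0.38, limma adjusted p = 0.0833). Nanog gave -1.09 (95% interval -2.29 to 0.10, limma adjusted p = 0.137). From ES to EB4, 0 of 5 passed where 3.50% of genes were called, with 1 of 5 under 0.05 unadjusted and 0 called by edgeR and by DESeq2. Over all 16124 genes these counts were 3443 unadjusted, 503 with edgeR and 1668 with DESeq2. From EB4 to EB5, 0 of 5 passed where 2.51% of genes were called, and edgeR called 0 (beside 365 of all genes). Pou5f1 alone was under 0.05 unadjusted (beside 2630 of all genes) and called by DESeq2 (beside 1015). That change of Pou5f1 was -1.29 and passed with the block within genotype (limma adjusted p = 0.0456). From EB5 to EB8 Sox2 (-1.25, limma adjusted p = 0.0377) and Sall4 (-0.89, limma adjusted p = 0.0383) passed, beside 0.310% of genes called lower. Both calls were lost without KO EB5 replicate 1, KO EB5 replicate 2 or KO EB8 replicate 2, with limma adjusted p between 0.153 and 0.249.

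**Figure D2:**
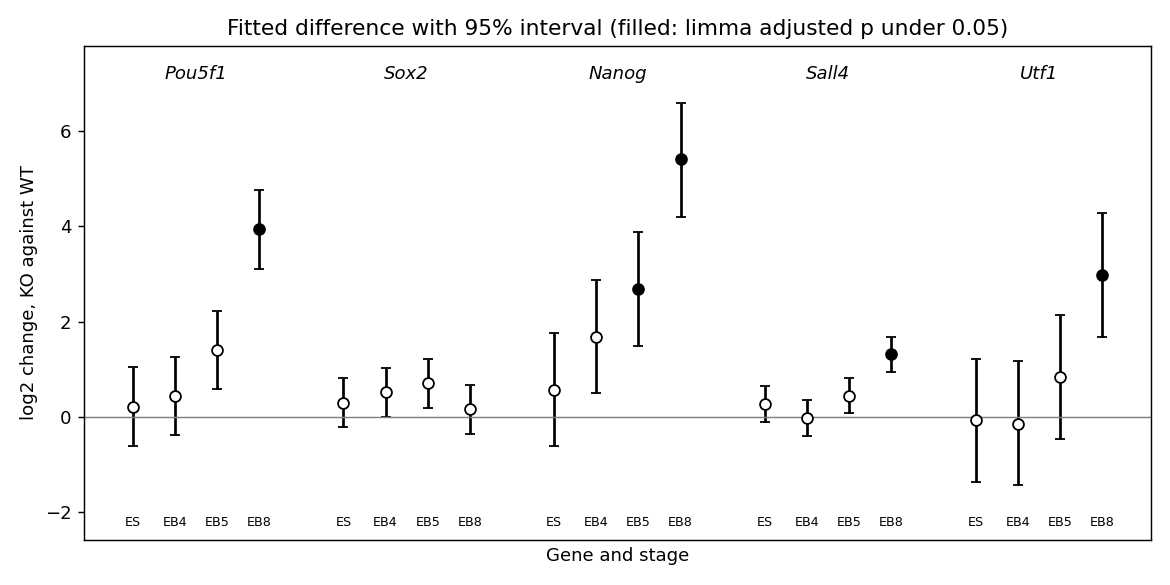
Fitted log2 difference of KO from WT for each factor at each stage (points, from 2 libraries a group), with 95% intervals as bars and filled points where the limma adjusted p was under 0.05. The difference of Nanog was 0.56, 1.68, 2.69 and 5.41 from ES to EB8, and that of Sox2 was between 0.15 and 0.70 throughout.

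Set against WT at the same stage, Nanog was the first of the factors to pass, at EB5, and 3 others followed at EB8. At EB4 both KO libraries (12278.3 and 18551.3) were above both WT libraries (6388.4 and 3464.6), a log2 difference of 1.68 that did not pass in limma (95% interval 0.49 to 2.88, adjusted p = 0.0896). At this stage 0 of the 5 passed where 6.12% of genes were called in either direction. Nanog was the 1 factor under 0.05 unadjusted, and edgeR called 0 and DESeq2 1 (Nanog, adjusted p = 0.0213). Over all 16124 genes these counts were 3668 unadjusted, 811 with edgeR and 2077 with DESeq2. At EB5 Nanog passed with a log2 difference of 2.69 (6.44-fold, 95% interval 2.81 to 14.7, limma adjusted p = 0.0230). This was 1 of 5 factors, beside 2.17% of genes called higher. The Nanog call at EB5 was lost without WT EB5 replicate 1 (limma adjusted p = 0.101), WT EB5 replicate 2 (0.0960) or KO EB5 replicate 2 (0.249), while the log2 difference stayed between 2.41 and 2.96.

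The other factors did not pass at EB5. Pou5f1 gave 1.40 (limma adjusted p = 0.0591), with both KO libraries above both WT libraries, and it passed under 4 of 16 alternatives. Sox2 gave 0.70 (adjusted p = 0.121) and Sall4 0.44 (0.164) in limma, again with the KO libraries above the WT libraries. Utf1 gave 0.84 (limma adjusted p = 0.464) and its groups overlapped.

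At EB8 Nanog, Pou5f1, Utf1 and Sall4 were all higher in KO cells. Nanog was 42.4-fold higher (95% interval 18.6 to 97.1, log2 difference 5.41, limma adjusted p = 7.67e-05). Pou5f1 was 15.3-fold higher (8.63 to 27.1, log2 difference 3.94, adjusted p = 5.57e-05 in limma). Utf1 was 7.90-fold higher (3.20 to 19.5, log2 difference 2.98, adjusted p = 0.00420 in limma), and Sall4 2.47-fold (1.91 to 3.20, log2 difference 1.31, adjusted p = 3.47e-04 in limma). In each of these 4 genes both KO libraries exceeded both WT libraries. The log2 difference of Utf1 was 2.05 without KO EB8 replicate 1 and 3.92 without KO EB8 replicate 2, and that of Nanog was 4.70 and 6.11 without WT EB8 replicates 1 and 2. Sox2 gave a log2 difference of 0.15 (95% interval -0.37 to 0.67, limma adjusted p = 0.697), an interval that reaches a fold of 1.59, and its KO libraries (6517.1 and 3904.1) spanned its WT libraries. The 4 of 5 stood beside 10.4% of genes called higher, and all 4 passed under each of 16 alternatives. A rescaling to the upper quartile moved the median of all genes at EB8 from -0.0287 to 0.111 and the calls from 1677 higher and 2020 lower to 2278 and 1615, and the 4 factors were called higher there too.

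The levels of the KO EB8 libraries can be placed among the WT stages. Pou5f1 in KO EB8 (3217.9 and 3690.0) overlapped WT EB5 (4185.5 and 1936.0). Utf1 in KO EB8 also overlapped WT EB5, and Sall4 in KO EB8 lay between WT EB5 and WT EB8 without overlap. Nanog in KO EB8 (7989.0 and 8407.9) was above both WT EB4 libraries and lay between the WT ES libraries (6241.9 and 22356.7). Sox2 in KO EB8 (6517.1 and 3904.1) overlapped WT EB8 (3950.5 and 5240.9). The placement therefore differed by gene, and these are orders of levels with no test.

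The change from ES to EB8 differed between the genotypes for 4 of the 5 factors, beside 3.85% of genes called in that direction. The fall was smaller in KO cells by 4.84 on the log2 scale for Nanog (SE 0.78, limma adjusted p = 0.00480) and by 3.72 for Pou5f1 (SE 0.54, adjusted p = 0.00336). It was smaller by 3.06 for Utf1 (SE 0.85, limma adjusted p = 0.0486) and by 1.04 for Sall4 (SE 0.24, adjusted p = 0.0242). For Sox2 the difference was -0.14 (95% interval -0.87 to 0.60, limma adjusted p = 0.840). Nanog and Pou5f1 passed under each of 21 alternatives. Without WT ES replicate 1 Nanog gave 5.76 and without WT ES replicate 2 it gave 3.92, while Pou5f1 gave 3.67 and 3.77. Without WT EB8 replicates 1 and 2 Nanog gave 4.14 and 5.55. Sall4 passed in 15 and Utf1 in 12 of the 21. Utf1 gave 2.13 without KO EB8 replicate 1 and 4.00 without KO EB8 replicate 2. Of the 8 fits that each left out 1 library, Utf1 passed only without KO EB8 replicate 2, and Sall4 passed without either WT ES library or KO EB8 replicate 2. From EB5 to EB8 alone 0 of 5 passed for the difference between genotypes in limma, beside 0.781% of genes in either direction. Of the 5, 4 were under 0.05 unadjusted, edgeR called 0 and DESeq2 called 3. Over all 16124 genes these counts were 1568 unadjusted, 112 with edgeR and 488 with DESeq2. Pou5f1 passed with the block within genotype (2.53, limma adjusted p = 0.0215).

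**Figure D3:**
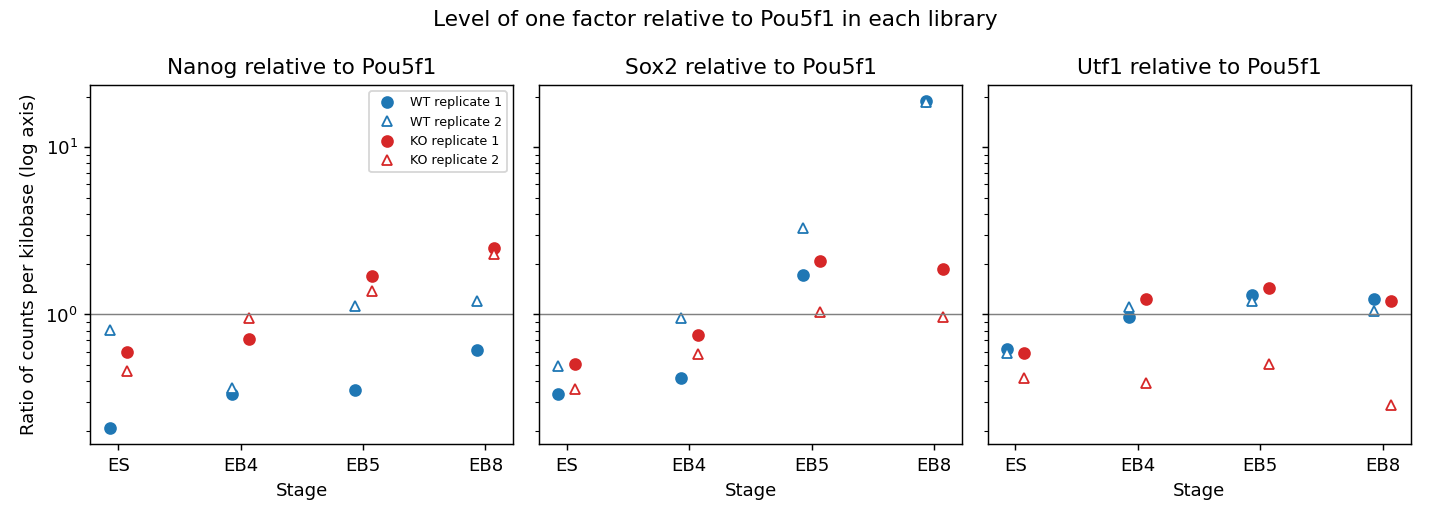
Count per kilobase of Nanog, Sox2 or Utf1 divided by that of Pou5f1 in the same library (log axis) at the 4 stages, WT in blue and KO in red, circles replicate 1 and triangles replicate 2. Sox2 relative to Pou5f1 reached 18.8 and 18.5 in WT EB8 against 1.86 and 0.971 in KO EB8.

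Because the factors fell at different rates, their proportions changed with stage. These levels are normalised counts per kilobase of annotated exon. In ES cells Pou5f1 had the highest level of the 5 in both genotypes, with means of 12839 per kilobase in WT and 14942 in KO. In KO EB8 Nanog had the highest mean, 3657 per kilobase, followed by Sox2 (2121), Pou5f1 (1531), Utf1 (1096) and Sall4 (1015). With the longest transcript as the length Pou5f1 was at 2564 per kilobase in KO EB8, which moved it above Sox2. In WT EB8 Sox2 had the highest mean (1870.5 per kilobase) and Nanog, Pou5f1 and Utf1 were at 96.1 to 113.

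The ratio of Nanog to Pou5f1 per kilobase in KO cells was 0.595 and 0.460 at ES, 0.711 and 0.955 at EB4, 1.69 and 1.39 at EB5, and 2.50 and 2.29 at EB8. The 4 KO stages did not overlap, so each later stage had relatively more Nanog. In WT cells the same ratio was 0.210 and 0.803 at ES, 0.333 and 0.363 at EB4, 0.352 and 1.12 at EB5, and 0.612 and 1.21 at EB8, with overlapping stages. The ratio of Sox2 to Pou5f1 in WT was 0.336 and 0.493 at ES and 18.8 and 18.5 at EB8, and in KO it was 0.508 and 0.360 at ES and 1.86 and 0.971 at EB8. Sox2 and Pou5f1 thus parted in WT EB8 far more than in KO EB8. The ratio of Utf1 to Pou5f1 differed between the KO libraries at the EB stages, with 1.21 in replicate 1 and 0.288 in replicate 2 at EB8, against 1.24 and 1.05 in WT EB8. With the longest transcript as the length the ratios to Pou5f1 were lower in every library, and that of Nanog in KO cells was 0.360 and 0.279 at ES, 0.431 and 0.578 at EB4, 1.02 and 0.840 at EB5, and 1.51 and 1.39 at EB8, again without overlap between stages. The ratios are descriptions and were not tested.

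Summed, the 5 factors made up 0.225% to 0.295% of the counts of an ES library. In EB8 they made up 0.0246% and 0.0311% of the WT libraries and 0.110% and 0.0896% of the KO libraries.

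**Figure D4:**
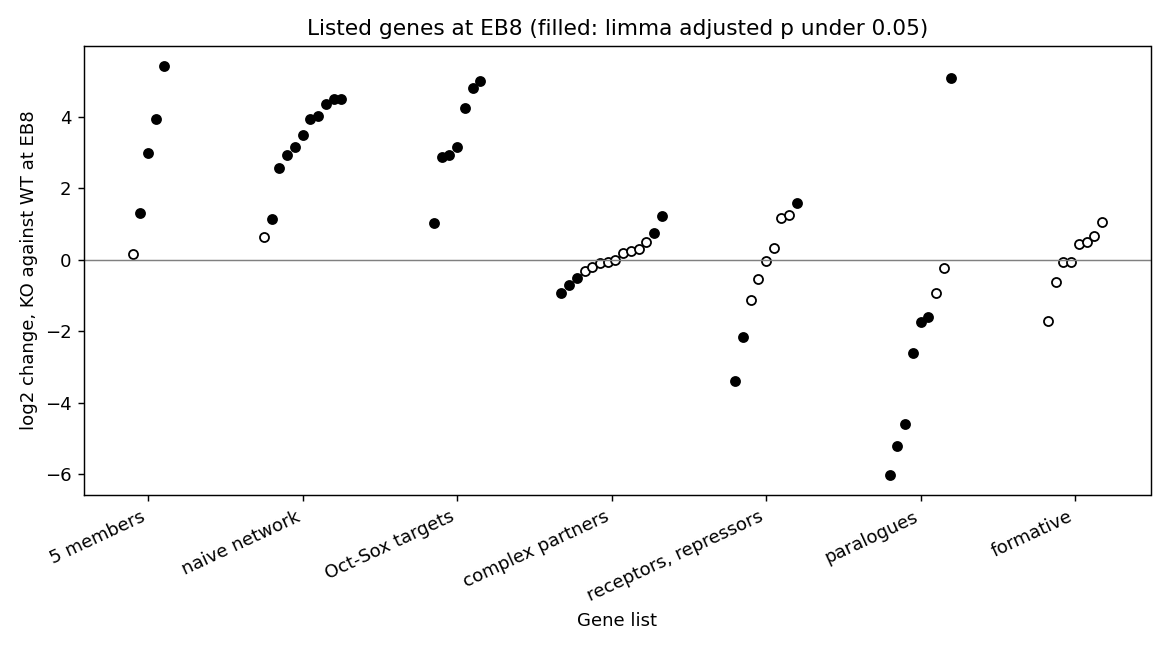
log2 difference of KO from WT at EB8 for the 5 factors and for the tested genes of 6 lists (1 point a gene, from 2 libraries a group, filled where the limma adjusted p was under 0.05). In the naive network 10 of 11 genes, and among targets of the Oct-Sox pair 7 of 7, were called higher, beside 10.4% of all genes. The lists were chosen with earlier results of these data known, so these counts are descriptions.

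Neighbours of the factors in the network of the naive state, that of the early epiblast, were higher in KO EB8. Of 11 listed genes, all tested, 10 were called higher and 0 lower, beside 10.4% and 12.5% of all genes. Their median log2 difference was 3.50, beside -0.03 over all genes. This list and those below were chosen with earlier results of these data known, so their counts are descriptions. Esrrb, an orphan receptor that acts with Nanog, was read at 199.5 and 349.4 in WT EB8 and at 5510.6 and 5325.1 in KO EB8, a log2 difference of 4.35. Prdm14 and Dppa3, both also expressed in germ cells, each gave 4.49, and Nr5a2, a receptor that can activate Pou5f1, gave 4.01. Klf4, the 1 gene that did not pass, gave 0.65 (limma adjusted p = 0.448). Klf4 had been called higher at EB4 (2.18). At EB4 7 of the 11 were called higher, beside 2.75% of genes, and at EB5 6, beside the 2.17% given above. At EB4 the count was 0 without KO EB4 replicate 2 and with only the compared groups fitted, and 4 without WT EB4 replicate 1. At EB5 it was 0 without KO EB5 replicate 2, 2 without WT EB5 replicate 2, and 4 without WT EB5 replicate 1 or KO EB5 replicate 1. At EB8 it stayed between 8 and 10 under the alternatives.

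Targets of the Oct-Sox pair were called higher in 7 of 7 cases at EB8, beside 10.4% of all genes, with a median of 3.16. At EB4 1 of 7 was called higher (Spp1), beside 2.75% of genes, and at EB5 1 of 7 (Fgf4), beside 2.17%. The EB8 count stayed between 5 and 7 under the alternatives, and both earlier counts ranged down to 0. Fgf4, which encodes a growth factor of the epiblast, was read at 7.4 and 61.4 in WT EB8 and at 450.5 and 898.0 in KO EB8 (log2 difference 4.80). Lefty1, an inhibitor of Nodal signalling, gave 4.99, and Fbxo15, an F-box gene of ES cells, gave 4.24. Zfp42 stands in both lists.

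Genes whose proteins form complexes with the factors did not move one way. Of 14, 2 were called higher and 3 lower at EB8, with a median of -0.03 that equals that of all genes. Over all genes 10.4% were called higher and 12.5% lower, and with upper-quartile rescaling or quantile normalisation the list gave 4 higher and 2 lower. Arid3b, an ARID-domain protein, gave 1.23, and Hdac1, a histone deacetylase, 0.76. Mta1, Mbd3 and Chd4, subunits of the NuRD chromatin complex, gave -0.94, -0.70 and -0.52. Other NuRD subunits were not lower, namely Hdac1, given above as higher, and Gatad2a (-0.01, limma adjusted p = 0.991).

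Among 9 nuclear receptors and repressors that act on Pou5f1 or Nanog, 1 was called higher and 2 lower at EB8, beside 10.4% and 12.5% of all genes. Both lower calls were lost without WT EB8 replicate 2, KO EB8 replicate 1 or KO EB8 replicate 2, and 1 of them without WT EB8 replicate 1. Nr6a1 (GCNF), a repressor of Pou5f1, was read at 12342.0 and 12204.6 in WT EB5 and at 3366.7 and 2208.6 in WT EB8, and in KO at 14713.6 and 10355.2 at EB5 and 9970.4 and 6790.9 at EB8. It was thus higher in KO at EB8 (1.59, SE 0.24, limma adjusted p = 6.91e-04), in the same libraries in which Pou5f1 was higher. Nr2f1 (COUP-TFI), a receptor that can repress Pou5f1, was read at 7276.3 and 8334.7 in WT EB8 and at 948.5 and 571.0 in KO EB8 (-3.40). Rarb, a retinoic acid receptor and a direct target of retinoic acid, was read at 5797.7 and 7403.0 in WT EB8 and at 1461.3 and 1487.1 in KO EB8 (-2.15). In KO EB8 both were far above their KO ES levels, which for Rarb were 2.5 and 3.6.

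Most tested paralogues of the factors were lower in KO EB8, where 10.4% of all genes were called higher and 12.5% lower. Of 9 tested POU, Sox and Sall genes, 1 was called higher and 6 lower at EB8, and 5 or 6 were lower under the alternatives. Sox15, which is expressed in ES cells, was read at 8.4 and 8.5 in WT EB8 and at 471.6 and 214.1 in KO EB8 (5.08). Pou3f2 (-6.01) and Pou3f3 (-5.21), POU factors of neural cells, and Sox3 (-4.58), a Sox factor of neural progenitors, were lower. Sall1, Sall2 and Sall3 were also lower, by -1.74, -1.59 and -2.61, while Sall4 was higher. Sox2ot, the noncoding gene around Sox2, was read at 582.8 and 385.4 in WT EB8 and at 30.6 and 26.6 in KO EB8 (-4.01, SE 0.67, limma adjusted p = 0.00140), at a stage where Sox2 itself did not pass.

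Of 8 genes of the formative state, which follows the naive state, limma called 0 at EB8. This is a count of few genes beside 10.4% of all genes called higher and 12.5% lower. Of the 8, 3 were under 0.05 unadjusted, edgeR called 0 and DESeq2 2, and the median was 0.19. Over all 16124 genes 5803 were under 0.05 unadjusted, edgeR called 3546 and DESeq2 4626. With quantile normalisation limma called 1 higher and 1 lower. Fgf5 was read at 87.2 and 97.4 in WT EB8 and at 124.5 and 138.5 in KO EB8. It had been at 3707.7 and 4971.2 in WT EB4 and at 2751.2 and 1588.8 in KO EB4, so its mean level was highest at EB4 in both genotypes.

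Markers of other cell types did not move one way at EB8. Of 7 neural progenitor markers 6 were called lower, beside 12.5% of genes, with a median of -3.29. Pou3f2 is 1 of them and stands also among the paralogues, and the summed counts of the 7 were 32503.2 and 30786.0 in WT EB8 against 6667.0 and 6265.7 in KO EB8. The markers called lower include Hes5, an effector of Notch signalling (810.7 and 1101.1 in WT EB8 against 14.8 and 5.3 in KO EB8). Hes5 had been at 4.2 and 2.1 in KO ES, so it was lower than in WT EB8 without a fall in KO cells. Fabp7, a radial glia gene, was called lower too, and its KO EB8 libraries (3.2 and 1.1) were at or under 3 reads. Of 9 germ cell markers 6 were called higher, beside 10.4% of genes, and 2 of the 6, Prdm14 and Dppa3, stand also in the naive list. Summed counts of the 9 were 2961.3 and 2576.0 in WT EB8 against 13925.8 and 9707.5 in KO EB8. Without WT EB8 replicate 2 the germ cell count was 3. Of 8 tested endoderm and trophoblast markers 2 were called higher (Eomes and Tfap2c, the latter also a germ cell marker here) and 2 lower (Foxa2 and Sox17), counts of few genes beside 10.4% and 12.5% of all genes. Sox17 was near the threshold (limma adjusted p = 0.0460). The lower count was 1 under several alternatives, among them a pseudocount of 0.1, upper-quartile rescaling and the replicate block. Of the 9 tested feeder markers limma and edgeR called 0 at EB8 and DESeq2 1 (beside 4626 of 16124 genes). Of these markers 1 was under 0.05 unadjusted (beside 5803 of all genes). The summed counts of all 10 listed were 4981.8 and 5265.3 in WT EB8 against 2723.1 and 5541.4 in KO EB8. Taf4b, the paralogue of Taf4a, was read at 479.9 and 343.0 in WT EB8 and at 832.4 and 916.1 in KO EB8 (1.10, limma adjusted p = 0.00400). The part of any of these cell types in the levels of the 5 factors was not tested.

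Over the 16 libraries Pou5f1 and Utf1 were the most alike of the 5 (Pearson r = 0.95 on log2 levels) and Sox2 and Nanog the least (0.74). Across all tested genes the pattern most like Pou5f1 was that of L1td1 (r = 0.990), followed by Ildr1, Mthfd1, Tdgf1 and Mup6. Nanog was most like Esrrb (0.981), then Dppa5a, Gm6792, Lrriq4 and Fbxo15. Utf1 was most like Bspry (0.976), then Slc35f2, Gm3200, Diap1 and Ccdc64. Sall4 was most like E130309D14Rik (0.948), then Glt1d1, Klhl21, 2410080I02Rik and Ccdc64. Sox2 was most like Fam100b (0.941), then Ydjc, Vdac1, Odf2 and Chchd10. These are descriptions over 16 libraries that share stages and genotypes, and many genes that fall with stage give a high r.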

How the data were processed

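The authors deposited 1 table of normalised read counts (signal) for 16 libraries, which per the labels and the study's methods came from poly-A RNA aligned with TopHat2 2.0.10 to mm9, counted with HTSeq 0.5.4p3 and scaled by DESeq2 1.0.19 size factors (base calling with CASAVA 1.7 and 1.8). The annotation release and the strand setting of the counting were not given in the sources used here. Deposited values were whole multiples of a step of 0.715 to 1.28 for 100.0% of values (tolerance 0.02), so whole reads were recovered for depth and for count tests. Genes with a mean of at least 10 (16124 of 27807) were tested with limma 3.58.1 (R 4.3.3) on log2(value + 1), with 1 fit of 8 groups, 8 residual and 4.27 prior degrees of freedom and Benjamini-Hochberg adjustment at 0.05. Fold changes are on that scale. Fits were tested on simulated data. edgeR 4.0.16 and DESeq2 1.42.0 on recovered reads, other scalings, filters and pseudocounts (0.1 and 5), fits of the compared groups alone, replicate blocks and fits without each library were alternatives. Where 1 library is left, it is assumed to vary like the other groups.

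The 5 factors and all gene lists were chosen with earlier results of these data known. Named are the factors, Taf4a, up to 4 passing genes a list with the largest difference at EB8, 5 genes with the highest r to each factor, and overlapping genes. Further genes were named after their values were seen: Klf4, Fgf5, Chd4, Gatad2a, Sall1, Sall2, Sall3, Eif2s3y, Zfp42, Lum and the list members given with no value. Sox1 was not used here. Libraries were grouped by title, and replicates were taken as separate lines of a genotype, of which the design names 2. WT ES replicate 2, however, may come from another line than the WT EB libraries. With 2 WT lines, both WT EB replicates of a stage could then come from 1 line, and the titles do not settle this. Same-numbered libraries deviated together among KO groups (r 0.233 to 0.422) and among the WT EB groups (0.523 to 0.605). They did not between WT ES and the other WT groups (-0.179 to -0.048) or between genotypes at EB4, EB5 and EB8 (-0.058, -0.209 and -0.133). Between WT ES and the KO groups, however, r was 0.335 (KO ES), 0.281 (KO EB4), 0.368 (KO EB5) and 0.056 (KO EB8). Gene positions and lengths came from GENCODE M1 and promoters from RefSeq (table build GRCm38.p6), placed by exact match in NCBIM37. Motifs were searched on both strands from 250 bases before to 50 after each start.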

Additional observations from a re-analysis of the deposited data

Results flagged for a closer look

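The change from ES to EB8 differed between the genotypes, by the test of the difference itself (limma, adjusted p under 0.05), for 4 factors. The difference of KO from WT in this log2 change was 4.84 for Nanog, 3.72 for Pou5f1, 3.06 for Utf1 and 1.04 for Sall4. That of Utf1 passed in 1 of 8 fits that each left out 1 library, and that of Sall4 in 3 of 8.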

How the results depend on the processing

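With 2 libraries a group, calls near the threshold depend on single libraries. Of the log2 changes of the factors, 1128 kept direction and side of the threshold over the alternatives, 32 lost a call, 30 gained one and 20 reversed. The cause was not tested.

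With DESeq2 the number of factors called was 1 at EB4 and 2 at EB5 for KO against WT, 2 from ES to EB4 and 2 from EB4 to EB5 in WT, 1 from EB4 to EB5 in KO, and 3 for the genotype difference from EB5 to EB8. Of all 16124 genes DESeq2 called 2077, 1719, 3911, 1094, 1015 and 488 in these comparisons, in that order. Quantile normalisation gave 2 at EB5 for KO against WT, 1 from EB5 to EB8 in KO and 2 for that genotype difference. Fits of the compared groups alone gave 0 from EB4 to EB5 in WT and 0 from EB5 to EB8 in KO, edgeR gave 1 in the latter, and a pseudocount of 5 gave 1 for the genotype difference from EB5 to EB8. The replicate block over all groups, whose numbers did not pair the genotypes at EB4, EB5 and EB8, gave 2 from EB4 to EB5 in WT. The replicate block within each genotype, added after seeing the data, gave 1 from ES to EB4 and 2 from EB4 to EB5 in WT, 1 from EB4 to EB5 in KO and 1 for the genotype difference from EB5 to EB8. A correlation within genotype and replicate number (0.166) gave 1, 2 and 1 in the first, second and last of these. Blocks lost no call of a factor. Sox2 reversed from EB4 to EB5 in KO under quantile normalisation (0.10) and in the genotype difference from ES to EB8 under upper-quartile rescaling (0.06) and quantile normalisation (0.14).

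Leaving out 1 library in turn gave 0 to 2 factors called at EB5 for KO against WT, 0 to 2 from ES to EB4 in WT, 0 to 1 from EB4 to EB5 in WT, 0 to 2 from EB5 to EB8 in KO, 0 to 1 for the genotype difference from EB5 to EB8 and 2 to 4 for that from ES to EB8. Values that reversed ranged, for KO against WT, from -0.36 to 1.48 (Nanog, ES), -0.21 to 0.04 (Utf1, ES), -0.90 to 0.61 (Utf1, EB4), -0.07 to 0.94 (Pou5f1, EB4), -0.09 to 0.04 (Sall4, EB4) and -0.22 to 0.52 (Sox2, EB8). From ES to EB4 they ranged from -0.72 to 0.09 (Utf1, WT), -0.51 to 0.09 (Nanog, KO), -0.04 to 0.09 (Sall4, KO) and -1.13 to 0.38 (Utf1, KO), and for the genotype difference of Sox2 from ES to EB8 from -0.51 to 0.23.

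Over all genes, KO against WT gave 0, 986, 700 and 3697 calls at ES, EB4, EB5 and EB8, DESeq2 469, 2077, 1719 and 4626, and fits of the compared groups alone 0, 0, 72 and 3064. Without KO EB4 replicate 2 EB4 gave 0, and without KO EB5 replicate 2 EB5 gave 0. Upper-quartile rescaling turned 620 higher and 555 lower genotype differences from ES to EB8 into 908 and 424, and quantile normalisation 16 and 110 from EB5 to EB8 into 43 and 125.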
